A study of Mus musculus with 6 samples.

Results

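The oligodendrocyte precursor and lineage genes were 9 genes taken by name from a hippocampal count table of 55471 genes in p300-ifKOs and control littermates. They were matched through their Ensembl identifiers, and 9 of the 9 were found. Pdgfra and Cspg4 stood for the precursor cell, Olig1, Olig2 and Sox10 for the transcription factors of the lineage, and Bcas1, Enpp6, Gpr17 and Myrf for the cells on their way to myelination. They were chosen for their known roles, though with earlier results of these data known.

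RNA-seq was performed on total RNA from the hippocampus of single mice, 3 per genotype, and all 6 mice were 3 to 6 months old, C57BL/6 in the labels (C57BL/6J in the study's methods) and, by those methods, male. The p300-ifKOs carried floxed Ep300 alleles, which encode the lysine acetyltransferase p300, and the Camk2a-creERT2 driver. Both genotypes had received 5 intragastric doses of tamoxifen (20 mg/ml in corn oil) on alternate days, and the study asked which hippocampal transcripts depend on p300 in adult excitatory neurons. The Camk2a-creERT2 driver acts in excitatory neurons of the forebrain, so the oligodendrocyte lineage was not a target of the deletion, and the truncated p300 left after recombination lacks acetyltransferase activity. For the controls the labels do not speak with one voice. The protocol calls them littermates without creERT2, as do the study's methods, while the library descriptions name Camk2a_creERT2 and no floxed allele.

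Oligodendrocyte precursors are dividing glial cells that persist in the adult hippocampus and renew myelin there. They leave the cycle, pass through a short premyelinating stage and then switch on the genes of the myelin sheath. Olig2 and Sox10 are expressed through the whole lineage, whereas the PDGF receptor alpha and the NG2 proteoglycan mark its first stage and GPR17, BCAS1 and ENPP6 its middle one.

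The libraries held 23151568 to 28433823 counts, and every pair of libraries differed by more than sampling noise. Ep300, counted over all of its exons and not over the floxed part alone, was at 1545, 1474 and 2334 normalized counts in controls and at 478, 1350 and 912 in p300-ifKOs. The groups did not overlap, but p300-ifKO replicate 2 lay close to the lowest control (log2 fold change of Ep300 −0.97 ± 0.33 SE, adjusted p = 0.991 in DESeq2). The 2 genes past an adjusted p of 0.05 were Esr1, the estrogen receptor whose ligand-binding part creERT2 carries, at 102 ± 12.5 in controls and 3167 ± 937 in p300-ifKOs (SD, n = 3 each), and Arsi, at 30.6 ± 7.46 and 181 ± 20.1. The study describes higher Arsi and Esr1 as a feature of Camk2a-creERT2 mice, with Arsi being part of the transgene. Esr1 was low in the control libraries whose descriptions name the driver. The libraries also differed along gene length. Over the 13614 genes that averaged at least 50 normalized counts, the rank correlation (Spearman) between exonic length and a gene's deviation from its own average was 0.26, 0.224 and 0.574 for the control libraries and −0.625, 0.572 and −0.39 for the p300-ifKO libraries. Estimates with and without a term for length are given below. The 9 hippocampal field markers summed to 227 to 244 FPKM in controls and to 214 to 233 FPKM in p300-ifKOs, where FPKM is the count scaled to a kilobase of exon and to the total count of the library.

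None of the 9 genes passed an adjusted p of 0.05 in the DESeq2 comparison of p300-ifKOs with controls, where 0.0061% of 32773 tested genes did. None reached an unadjusted p of 0.05 either, against 1.32% of all genes tested, and the count of members past the threshold was also 0 in edgeR and in limma-voom, each with 0.0117% of 17131 genes called. The normalized counts of the genotypes overlapped for each of the 9, against 6.64% of tested genes without overlap. The estimates were higher in p300-ifKOs for 6 genes and lower for 3, from −0.29 for Pdgfra to 0.19 for Enpp6, with a median of 0.0057 beside −0.046 over all tested genes. The adjusted p was 0.991 for 7 genes and 0.997 for Olig2 and Myrf. In whole hippocampus, the number of cells of the lineage and the RNA per cell cannot be told apart.

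**Figure D1:**
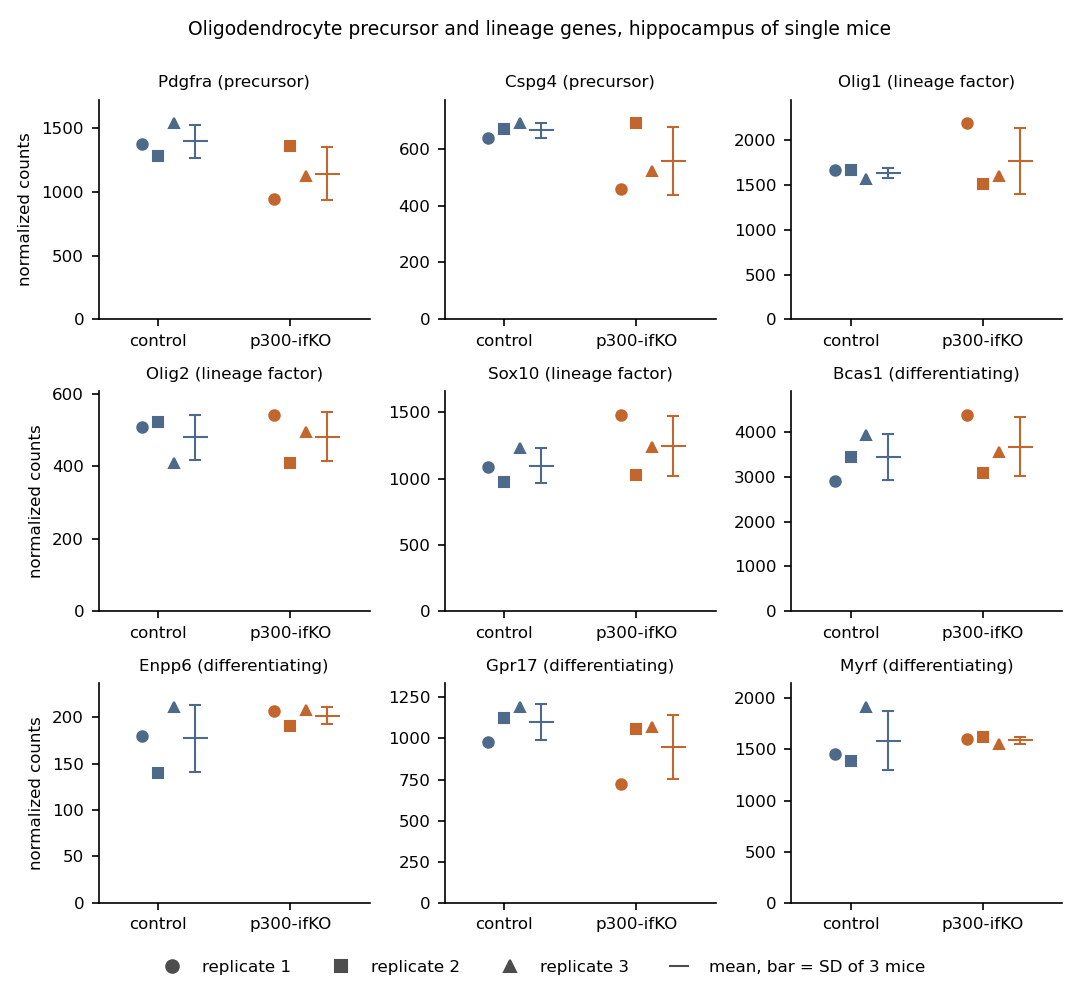
Normalized counts (vertical axes, from 0) of the 9 genes in each of 3 control mice (blue) and 3 p300-ifKO mice (orange), with the symbol giving the replicate number and the bar giving mean and SD. Pdgfra, Cspg4 and Gpr17 were lowest in p300-ifKO replicate 1 (circles, 945, 459.7 and 722), the same mouse in which Olig1, Olig2, Sox10 and Bcas1 were highest (2188, 541, 1479 and 4377).

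Pdgfra encodes the receptor through which platelet-derived growth factor drives precursors to divide. It lies at chr5:75152292-75198215 on the plus strand (GRCm38), with 10024 exonic bases in 27 merged exons. Control mice had 1373, 1282 and 1538 normalized counts and p300-ifKOs 945, 1362 and 1121. p300-ifKO replicates 1 and 3 lay below every control, whereas replicate 2 lay inside the control range. The means were 1398 ± 129.8 and 1142 ± 209 (SD, n = 3 each), a log2 fold change of −0.29 ± 0.17 (SE) with a 95% interval of −0.63 to 0.050. This was the lowest estimate among the 9 genes, at an unadjusted p of 0.0948 in DESeq2 over all genes. Part of its exons is covered by 2 gene models on the other strand, and since the strand setting of the counting is not given in the sources used here, reads of these models and of Pdgfra cannot be told apart there (4.93% of the 50-base stretches of its exons recur in other genes).

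Cspg4 encodes the NG2 proteoglycan of the precursor surface, which pericytes of the vessel wall also carry. The gene lies at chr9:56865033-56899870 on the plus strand and has 11931 exonic bases, more than any of the others. Controls had 637, 668 and 689 normalized counts, within a coefficient of variation of 3.90%, and p300-ifKOs had 459.7, 688 and 522. Again replicates 1 and 3 lay below every control and replicate 2 among them. The means were 665 ± 25.9 and 557 ± 118, a log2 fold change of −0.25 ± 0.18 (SE, 95% interval −0.61 to 0.10). The summed level of 8 pericyte markers ran from 70.3 to 75.6 FPKM in controls and from 69.0 to 84.3 FPKM in p300-ifKOs, while 6 of the 8 single markers had a lower estimate in p300-ifKOs. Their part in the Cspg4 estimate was not tested.

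Pdgfra and Cspg4 moved together from mouse to mouse. The ratio of their FPKM stayed between 2.28 and 2.66 over the 6 mice, a 1.16-fold spread and the narrowest of the 36 pairs that the 9 genes form. In the pattern of log2 counts over the 6 libraries each was the nearest of the other members to its partner, at a root mean square difference of 0.0755. Many genes outside the lineage were nearer still. Cspg4 took place 271 among the genes nearest to Pdgfra, behind Lsamp (0.0203), a neuronal adhesion molecule, and Cdon (0.0279) at the head of that order, and Pdgfra took place 282 among those nearest to Cspg4. Magi2, a synaptic scaffold, lay at 0.0288 from Cspg4. These are descriptions over 6 libraries that share the length trend, and Lsamp and Magi2 are long transcripts too (17213 and 11348 exonic bases).

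The promoters of this pair are shown because the 2 genes kept a steady ratio. The sequences are from RefSeq on GRCm38.p6, plus strand, 5′ to 3′, from up to 250 bases before the RefSeq start and ending before any annotated transcript. Capitals mark CANNTG, the E-box of basic helix-loop-helix factors such as Olig1 and Olig2, searched on both strands together with ACAAAG, a core of the SOX motif.
Pdgfra, chr5:75152001-75152250: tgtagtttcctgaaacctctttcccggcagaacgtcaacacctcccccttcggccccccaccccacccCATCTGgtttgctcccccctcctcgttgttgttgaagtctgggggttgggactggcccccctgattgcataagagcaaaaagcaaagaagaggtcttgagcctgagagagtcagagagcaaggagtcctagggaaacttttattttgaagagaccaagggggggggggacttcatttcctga
Cspg4, chr9:56864854-56865032: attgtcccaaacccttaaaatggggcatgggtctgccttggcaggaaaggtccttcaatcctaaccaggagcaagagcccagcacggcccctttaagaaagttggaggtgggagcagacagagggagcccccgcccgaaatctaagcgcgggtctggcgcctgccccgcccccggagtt
The 250 bases of Pdgfra held 1 CANNTG, a motif that occurred at least once in 66.2% of 32851 promoters at that length, and no ACAAAG, which 16.5% held. The 179 bases of Cspg4 held neither, whereas 55.3% of windows of 179 bases held CANNTG and 12.2% ACAAAG. Of the other members, Olig2 and Enpp6 matched an entry too (4 of 9 in all), and their windows of 157 and 250 bases held neither motif.

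Olig1 and Olig2 encode basic helix-loop-helix factors that specify the lineage, and they sit 41094 bases apart on chromosome 16, Olig2 at chr16:91225457-91228677 and Olig1 at chr16:91269772-91271933, both on the plus strand. Olig1 is a single exon of 2162 bases. Olig1 had 1669, 1662 and 1569 normalized counts in controls and 2188, 1511 and 1596 in p300-ifKOs. One p300-ifKO mouse, replicate 1, stood above the 5 others, and the remaining values of the genotypes interleaved. The means were 1634 ± 55.7 and 1765 ± 369, a log2 fold change of 0.11 ± 0.17 (SE, 95% interval −0.23 to 0.45). A gene model on the other strand, Gm15966, overlaps Olig1, so that 5.11% of its 50-base stretches recur there.

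Olig2, which keeps precursors in their identity and is needed for the lineage to form, gave the estimate closest to 0 after Myrf. It had 509, 522 and 408 normalized counts in controls and 541, 409 and 496 in p300-ifKOs. Each genotype held 1 mouse near 408 and 2 mice near or above 496, and the log2 fold change was 0.0057 ± 0.18 (SE). Its 95% interval ran from −0.35 to 0.36, a fold range of 0.787 to 1.28. Differences inside those bounds remain compatible with the 3 mice per genotype, and the interval is not a limit of detection. The ratio of Olig1 to Olig2 in FPKM stayed between 3.73 and 4.73, the second narrowest spread of the 36 pairs (1.27-fold). The exons of Olig2 span 2530 bases, close to those of its neighbor, and each of the pair was the nearest member to the other in pattern, at a root mean square difference of 0.134. Far more genes outside the lineage were nearer, since Olig2 took place 3124 in the order of Olig1 and Olig1 took place 2264 in that of Olig2. Among all genes, Hebp2 (0.0273) and Rfng (0.0279), a modifier of Notch receptors, were nearest to Olig1, and Card10 (0.0266) and Anapc15 (0.0428) to Olig2.

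Sox10 encodes the SOX factor that, with Myrf, turns on myelin genes, and it lies at chr15:79154908-79165240 on the minus strand with 3051 exonic bases. Controls had 1088, 972 and 1233 normalized counts and p300-ifKOs 1479, 1025 and 1238. Replicate 1 was again the highest mouse, and the other 5 overlapped across genotypes. The log2 fold change was 0.18 ± 0.18 (SE, 95% interval −0.17 to 0.54). Vim, the intermediate filament of immature glia, was its nearest gene in pattern (0.0417), followed by Tnfaip8l1 (0.0498).

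Bcas1 encodes a myelin-associated protein of premyelinating and early myelinating cells. It lies at chr2:170346991-170427845 on the minus strand and spans 3775 exonic bases, of which 8.98% of 50-base stretches are shared with the antisense Bcas1os1. Unless the counting kept the strand, which is not given, reads from the 2 genes cannot be told apart there. Bcas1 had 2911, 3442 and 3939 normalized counts in controls and 4377, 3074 and 3552 in p300-ifKOs. The control mice alone spanned from the lowest value of the 6 to the second highest, and the log2 fold change was 0.096 ± 0.18 (SE, 95% interval −0.26 to 0.46). Its 2 nearest genes in pattern were Gltp (0.0601), which encodes a glycolipid transfer protein, and Cnp (0.0607), which encodes an enzyme of myelin.

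Enpp6, a choline phosphodiesterase of newly formed oligodendrocytes, was the least abundant of the 9, at chr8:46986887-47096762 on the plus strand with 6412 exonic bases. It had 180.0, 139.7 and 211 normalized counts in controls and 206, 191 and 207 in p300-ifKOs. The p300-ifKO mice lay close together, inside the upper part of the control range. The means were 177 ± 35.9 and 201.5 ± 9.2, and the log2 fold change of 0.19 ± 0.21 (SE, 95% interval −0.22 to 0.59) was the highest of the 9. Ccdc96 (0.0564) and Pamr1 (0.0579) were nearest to it in pattern. None of its 50-base exonic stretches recurs in another gene.

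Gpr17 encodes a receptor of committed precursors that restrains their maturation. It lies at chr18:31942997-31949636 on the minus strand, with 5195 exonic bases, and 1.87% of its 50-base stretches are shared with Lims2 on the other strand. Controls had 980.4, 1123 and 1193 normalized counts, and p300-ifKOs had 722, 1055 and 1069. Only p300-ifKO replicate 1 lay below the controls, and the other 2 mice lay between them. The log2 fold change was −0.21 ± 0.19 (SE, 95% interval −0.58 to 0.16), and Ggta1 (0.0206) and Rtkn (0.0301) were the nearest genes in pattern. Gpr17 parted from Bcas1, another marker of the premyelinating stage, in that mouse. The ratio of Bcas1 to Gpr17 in FPKM was 8.35 in p300-ifKO replicate 1, above its range in controls (4.09 to 4.54). It was 4.01 in p300-ifKO replicate 2 and 4.57 in replicate 3. This ratio was picked from the 36 between members and carries no test. The ratios of Sox10 (2.37-fold), Olig1 (2.30-fold) and Enpp6 (2.30-fold) to Gpr17 spread more than that of Bcas1 (2.08-fold). p300-ifKO replicate 1 followed length with a rho of −0.625, and Bcas1 (3775 exonic bases) is shorter than Gpr17. The part of length in this ratio was not tested.

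Myrf encodes the membrane-bound factor required for myelin gene expression, at chr19:10208272-10240748 on the minus strand with 8562 exonic bases. It had 1451, 1385 and 1917 normalized counts in controls and 1597, 1619 and 1551 in p300-ifKOs. The p300-ifKO values fell within a coefficient of variation of 2.19%, against 18.3% in controls, and lay inside the control range. The log2 fold change was 0.0042 ± 0.16 (SE, 95% interval −0.31 to 0.32). Prkdc, which encodes a DNA repair kinase, lay at 0.0433 from Myrf in pattern.

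Levels were compared between genes per exonic length. Bcas1 was the highest, with a mean over the 6 mice of 37.7 FPKM (30.9 to 46.6), followed by Olig1 at 31.5 FPKM (27.8 to 40.7), and the values of these 2 genes overlapped. Sox10 came next at 15.4 FPKM (12.5 to 19.5), apart from both. Gpr17 (7.89 FPKM), Olig2 (7.62 FPKM) and Myrf (7.43 FPKM) formed a group whose neighbors did not differ beyond their spread. Pdgfra had 5.07 FPKM (3.79 to 6.16), Cspg4 had 2.05 FPKM (1.55 to 2.32) and Enpp6 had 1.18 FPKM (0.857 to 1.32), each apart from its neighbor in the order. Sox10, Pdgfra, Cspg4 and Enpp6 kept ranks 3, 7, 8 and 9 in each of the 6 mice. Among the tested genes, Bcas1 stood at the 96.5 percentile of level and Enpp6 at the 61.7 percentile, and each of the 9 had at least 133 raw counts in each library.

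**Figure D2:**
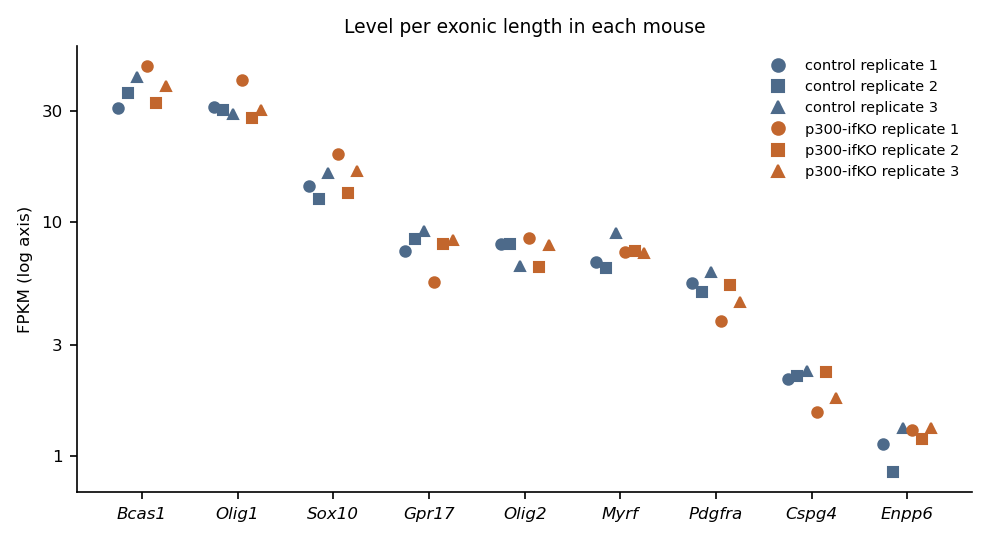
FPKM (vertical log axis) of the 9 genes in each mouse, ordered from left to right by the mean of the 6 mice, in blue for controls and orange for p300-ifKOs. Bcas1 and Olig1 overlap at about 30, Gpr17, Olig2 and Myrf overlap, and Enpp6 lies lowest at 0.857 to 1.32.

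Summed by stage, the precursor pair had 7.64, 7.23 and 8.48 FPKM in controls and 5.34, 7.70 and 6.35 FPKM in p300-ifKOs. p300-ifKO replicate 2 was again within the control range and the 2 others below it. The 3 lineage factors had 53.3, 50.9 and 51.9 FPKM in controls and 68.8, 47.6 and 54.7 FPKM in p300-ifKOs, and the 4 differentiating genes 46.4, 51.6 and 61.5 FPKM and 61.0, 49.2 and 55.5 FPKM. The genotypes overlapped at every stage. Among the 36 ratios between members, Pdgfra to Enpp6 was the 1 without overlap, at 4.66 to 5.87 in controls and 2.93 to 4.56 in p300-ifKOs. It was noticed among the 36 and carries no test.

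The deviations of the 9 genes gathered in a few mice. p300-ifKO replicate 1 was the highest of the 6 libraries for Olig1, Olig2, Sox10 and Bcas1 and the lowest for Pdgfra, Cspg4 and Gpr17, and control replicate 3 was the highest for the remaining 5, Pdgfra, Cspg4, Enpp6, Gpr17 and Myrf. Of the 13614 genes with a mean of at least 50 normalized counts, 39.3% were highest and 40.3% lowest in p300-ifKO replicate 1, and 21.4% were highest in control replicate 3. The 4 genes highest in p300-ifKO replicate 1 have exonic lengths from 2162 to 3775 bases and the 3 lowest there from 5195 to 11931 bases. Without p300-ifKO replicate 1 the log2 fold change of Pdgfra was −0.17, of Cspg4 −0.14 and of Gpr17 −0.051, while Olig1 (−0.074), Olig2 (−0.087), Bcas1 (−0.052) and Myrf (−0.00085) turned to the other sign. Sox10 was then at 0.043 and Enpp6 at 0.17. None of the 9 passed an adjusted p of 0.05 in that fit, as 0.0062% of tested genes did.

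**Figure D3:**
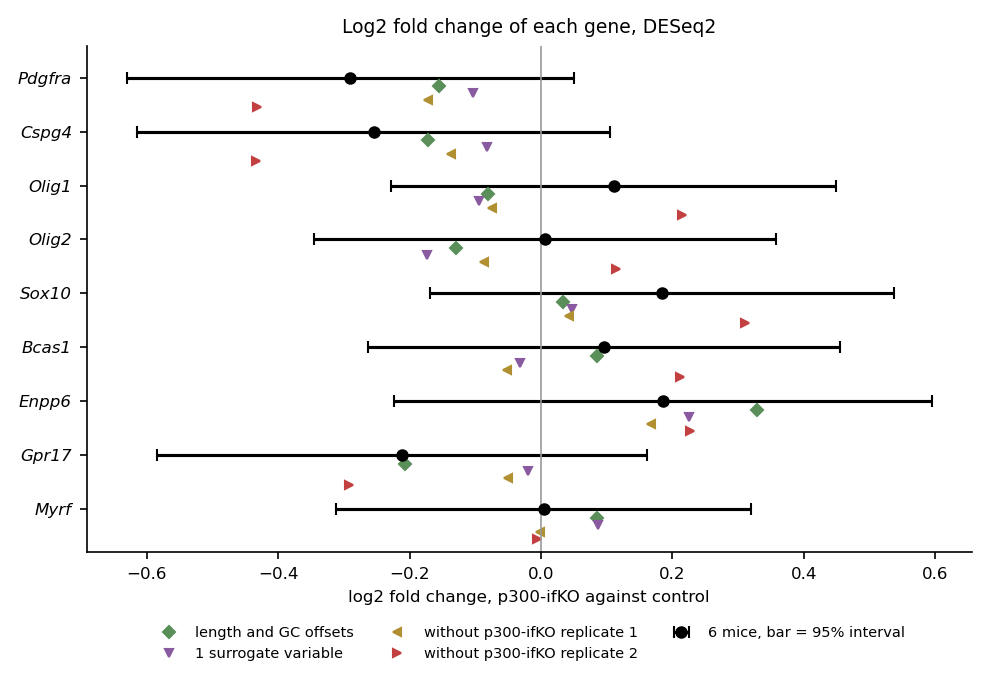
Log2 fold change of each gene in p300-ifKOs against controls (horizontal axis) from the DESeq2 comparison of 6 mice, with its 95% interval (black), and estimates with length and GC offsets (green), with 1 surrogate variable (purple), without p300-ifKO replicate 1 (yellow) and without p300-ifKO replicate 2 (red). Each black interval crosses 0, and Pdgfra and Cspg4 lie furthest from 0 without p300-ifKO replicate 2, both at −0.43.

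Without p300-ifKO replicate 2, the mouse with the highest Ep300 count of its genotype, the 2 precursor genes came nearest to the threshold. Pdgfra had a log2 fold change of −0.43 (unadjusted p = 0.00470, adjusted p = 0.0544 in DESeq2) and Cspg4 of −0.43 (unadjusted p = 0.00612, adjusted p = 0.0607). Neither passed, nor did the other 7 genes, whose adjusted p ran up from 0.168 for Sox10. In that fit DESeq2 filtered genes by mean count before the adjustment, and 7.9% of the 11726 genes left passed an adjusted p of 0.05. Of all 32019 genes tested in it, 6.59% had an unadjusted p under 0.05 with a lower level in p300-ifKOs. The 2 p300-ifKO libraries left in that fit are those that followed length with a negative rho (−0.625 and −0.39, against 0.572 for replicate 2). Replicate 2 thus differed from them in both Ep300 count and length trend, which cannot be told apart here. The part of either in these estimates was not tested.

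The estimates were set beside those of genes of like exonic length. Over the 13614 genes the log2 fold change followed length with a Spearman rho of −0.579 and GC content with 0.355, as a description across genes that share the same libraries. In 10 equal bins of length the median went from 0.27 among the shortest genes to −0.19 among the longest. Olig1, Sox10, Bcas1 and Cspg4 lay between the quartiles of their own bin. Pdgfra (−0.29, quartiles −0.21 to −0.032) and Gpr17 (−0.21, quartiles −0.14 to 0.075) lay below theirs, as did Olig2 (0.0057, quartiles 0.033 to 0.28), and Enpp6 (0.19, quartiles −0.16 to 0.057) and Myrf (0.0042, quartiles −0.21 to −0.032) above. With a smooth offset for length and GC content in each library, Pdgfra was at −0.16 ± 0.097 (SE), Cspg4 at −0.17 ± 0.13, Gpr17 at −0.21 ± 0.17 and Enpp6 at 0.33 ± 0.21, and none of the 9 passed an adjusted p of 0.05 (0.0117% of 17053 genes did).

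**Figure D4:**
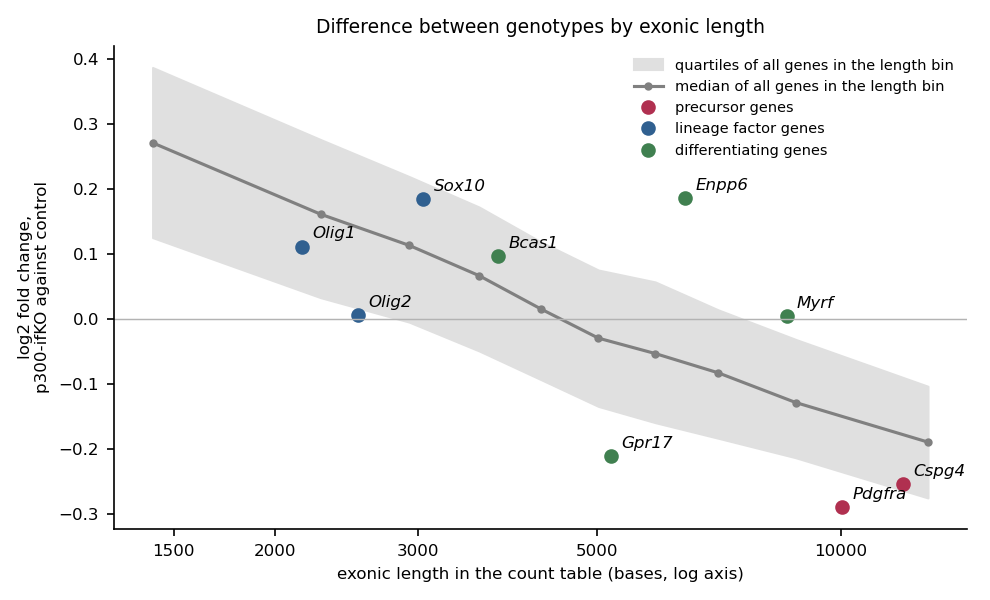
Log2 fold change in p300-ifKOs against controls (vertical axis) against exonic length in bases (horizontal log axis) for the 9 genes, colored by role, over the medians (line) and quartiles (band) of 10 length bins of 13614 genes. The line runs from 0.27 to −0.19, and Enpp6 and Myrf lie above the band while Pdgfra, Gpr17 and Olig2 lie below it.

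Of 59 further genes listed for roles in the lineage, in 5 lists, none passed an adjusted p of 0.05 in DESeq2, edgeR or limma-voom. Tnr and Nkx6-2, 2 of them, had an unadjusted p under 0.05 in DESeq2, where 1.32% of all tested genes did. In RNA of whole hippocampus, the cell types that gave the counts of these genes could not be told apart. Casr was left out by the low-count filter of edgeR and limma-voom. Of 10 other precursor genes, 4 were higher and 6 lower, with a median log2 fold change of −0.14, from Tnr (−0.44), a matrix glycoprotein, to Emid1 (0.36). Lhfpl3, Matn4 and Susd5 of this list did not overlap between the genotypes, each lower in p300-ifKOs, and the summed level of the list was 40.6 to 46.2 FPKM in controls and 38.2 to 39.3 FPKM in p300-ifKOs. These 3 genes were singled out after their values were seen, and 3.42% of all tested genes were lower without overlap. Lhfpl3, for instance, had 559, 560.0 and 554 normalized counts in controls and 430, 485 and 529.5 in p300-ifKOs (log2 fold change −0.21 ± 0.14 SE, adjusted p = 0.991 in DESeq2). The summed level of the list was not tested. Genes without overlap were not confined to this list. Among 13 other regulators, Nkx6-2 was higher and Zfp488 and Id4 were lower without overlap. Among markers of other cell types, Slc1a3 was lower and Csf1r and Neurod2 were higher, and 3.21% of all tested genes were higher without overlap.

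Of 10 other genes of committed and newly formed oligodendrocytes, 4 were higher and 6 lower (median −0.16). Its highest estimate was that of Rras2 (0.14) and its lowest that of Casr (−1.96), which is a gene of at most 10.2 normalized counts in any library. Of 13 other regulators of the lineage, 6 were higher and 7 lower (median −0.052), from Zfp488 (−0.41) to Nkx6-2 (0.56), a homeobox factor of oligodendrocytes, with 153, 98.8 and 143 normalized counts in controls and 251, 154 and 177 in p300-ifKOs. Of 14 signals and receptors, 3 were higher and 11 lower (median −0.13, with 5 higher and 9 lower in edgeR and limma-voom), from Notch1 (−0.53), a receptor that holds precursors back, to Pdgfb (0.061), a ligand of the PDGF family. Of 12 genes of mature myelin, 8 were higher and 4 lower (median 0.17), from Mobp (−0.15) to Aspa (0.32), and their summed level was 819 to 1143 FPKM in controls and 885 to 1128 FPKM in p300-ifKOs. The 9 members together came to 10.7% to 13.1% of that myelin sum in controls and to 11.35% to 11.98% in p300-ifKOs. Single libraries carried much of these medians. Leaving out p300-ifKO replicate 1 gave a median of 0.042 for the myelin genes, −0.021 for the signals and receptors and −0.082 for the committed and newly formed cells. Leaving out control replicate 3 gave 0.30 (12 of 12 higher), −0.076 and 0.0017 for the same lists in that order, and leaving out p300-ifKO replicate 2 gave 0.28, −0.22 and −0.016. The myelin median was 0.094 with control replicate 1 left out and 0.11 with control replicate 2 left out, which also put the committed and newly formed cells at −0.23. The median of the other regulators ran from −0.082 to −0.019 over the 6 omissions. Without p300-ifKO replicate 2, 4 of these 59 genes had an adjusted p under 0.05, all lower in p300-ifKOs, namely Tnr, Zeb2, Bmpr1b and Notch1. Of the 11726 genes given an adjusted p in that fit, 7.9% passed in either direction and 3.79% passed with a lower level.

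**Figure D5:**
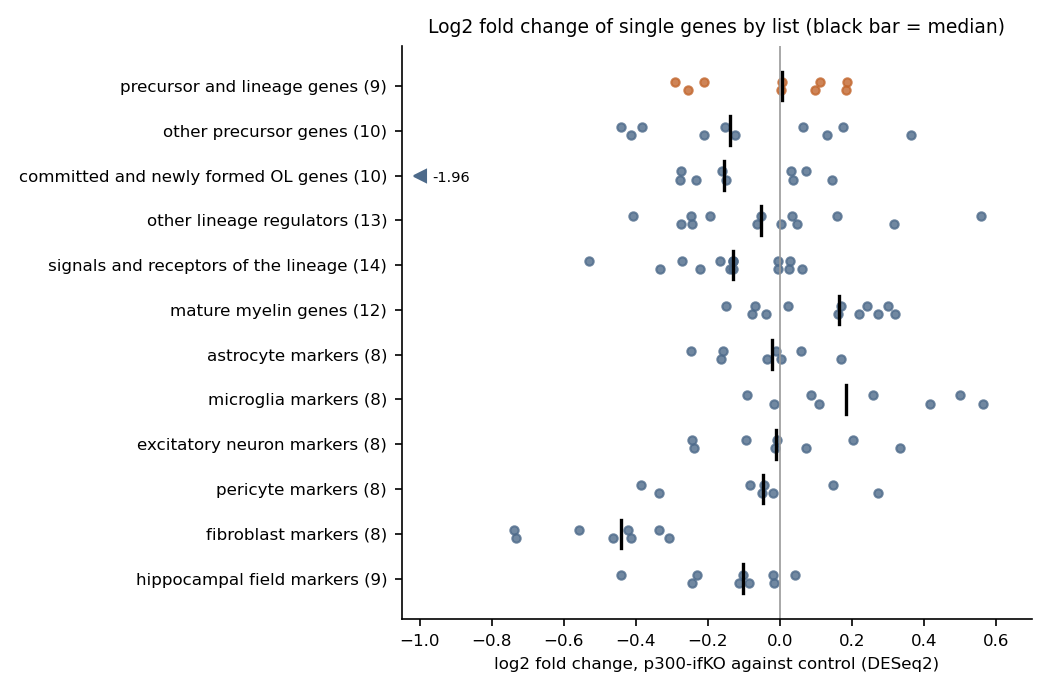
Log2 fold change in p300-ifKOs against controls (horizontal axis) for single genes of each list (rows, with the number of genes in parentheses), the 9 precursor and lineage genes in orange and the median as a black bar. Casr, at −1.96, lies off the axis and is drawn as an arrow, and the 8 fibroblast markers all lie below 0 with 6 mice, but 5 of them above 0 without control replicate 3.

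For markers of other cell types the median log2 fold changes were −0.023 for astrocytes (3 of 8 higher, Slc1a3 −0.25 to Gfap 0.17), 0.18 for microglia (6 of 8 higher, Cx3cr1 −0.090 to Aif1 0.56), −0.010 for excitatory neurons (3 of 8 higher, Prox1 −0.24 to Neurod2 0.33), −0.048 for pericytes (2 of 8 higher, Anpep −0.39 to Higd1b 0.27) and −0.10 for hippocampal fields (1 of 9 higher, Zbtb20 −0.44 to Rgs14 0.041). None of these genes passed an adjusted p of 0.05 in DESeq2, edgeR or limma-voom, and 4 of them had an unadjusted p under 0.05 in DESeq2, where 1.32% of all tested genes did. Directions were even for astrocytes with TMM factors and for excitatory neurons with limma-voom (4 of 8 higher in each). With single libraries left out, the medians ran from −0.064 to 0.022 for astrocytes, 0.090 to 0.25 for microglia, −0.089 to 0.090 for excitatory neurons, −0.092 to 0.032 for pericytes and −0.12 to −0.058 for hippocampal fields. Fibroblast markers, a cell type that also expresses Pdgfra, were lower for 8 of 8 genes (median −0.44, Col3a1 −0.74 to Slc22a6 −0.31), and their summed level ran from 17.3 to 30.01 FPKM in controls and from 12.95 to 20.6 FPKM in p300-ifKOs. This direction rested on control replicate 3, without which 5 of the 8 were higher and the median was 0.040, and with 1 surrogate variable 3 were higher and the median was −0.18. Dcn, named here after its values were seen, was the 1 fibroblast marker with an unadjusted p under 0.05 in DESeq2. The part of the fibroblast markers in the Pdgfra estimate was not tested.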

How the data were processed

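Total RNA from hippocampus was sequenced as single-end reads of 50 bases. The authors aligned them with STAR (2.6.1) to mm10 (GRCm38), kept reads with a mapping quality above 10 and assigned them to the exons of Ensembl release 99, and the deposited values are raw counts per gene with exonic lengths. The tools FastQC (0.11.8), Trim Galore (0.6.4) and DESeq2 (1.30.1) are from the submitters' processing notes.

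Symbols and coordinates came from the GENCODE annotation of GRCm38 (55230 genes matched). All genes with a count were fitted with DESeq2 (1.42.0, Wald test, two-sided, in R 4.3.3), without covariates. The p-values were adjusted over all genes tested (Benjamini-Hochberg, threshold 0.05), except in the fit without p300-ifKO replicate 2. There DESeq2 filtered genes by mean count, and 11726 of 32019 tested genes were given an adjusted p. FPKM was computed from counts, the deposited length and the total count of a library. Alternatives used edgeR (4.0.16), limma (3.58.1), sva (3.50.0) and mgcv (1.9.3). The fits to all 6 libraries, except the low-count filter in DESeq2, were run on simulated counts that held no length trend. The fits with a library left out were not run on simulated counts. By the study's methods each library was 1 mouse, and the labels name no batch. The members and lists were chosen with earlier results of these data known. Named genes were the 9 members, Ep300, Esr1 and Arsi as checks, the lowest and highest estimate of each list, and the 2 genes nearest to each member by the root mean square difference of centered log2(normalized count + 1), among genes with a mean of at least 50. For Cspg4 and Myrf, 1 such gene each is not reported here.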

Additional observations from a re-analysis of the deposited data

How the results depend on the processing

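None of the 9 members passed an adjusted p of 0.05 in any of 15 alternatives to the DESeq2 comparison, and Pdgfra, Cspg4, Sox10, Enpp6 and Gpr17 kept their sign in each. With 1 surrogate variable the log2 fold change turned to −0.094 for Olig1, −0.17 for Olig2 and −0.032 for Bcas1, and with length and GC offsets to −0.080 for Olig1 and −0.13 for Olig2. When single libraries were left out, the estimates ran from −0.074 to 0.21 for Olig1, −0.095 to 0.11 for Olig2, −0.052 to 0.21 for Bcas1 and −0.081 to 0.17 for Myrf, and the median of the 9 from −0.052 to 0.11, the last without p300-ifKO replicate 2. The cause of these moves was not tested. Medians of lists moved with 1 surrogate variable to −0.071 (other precursor genes), −0.028 (committed and newly formed cells), 0.020 (other regulators) and −0.087 (astrocytes), and with offsets to 0.016 (committed and newly formed cells). Over the 6 omissions of a library, the median of the other precursor genes ran from −0.16 to −0.10. With single libraries left out, the committed and newly formed list ran from −0.23 to 0.0017 and pericytes from −0.092 to 0.032, and genes past the threshold ran from 0 to 1 for other precursor genes, other regulators, microglia, excitatory neurons and hippocampal fields and from 0 to 2 for signals and receptors, all of them without p300-ifKO replicate 2, where 926 genes in all passed against 2. With DESeq2 size factors in place of total counts, Myrf had 7.39 FPKM in p300-ifKOs. With the replicate number as a block, 4 genes passed and no member did (Pdgfra −0.30, Cspg4 −0.28, Gpr17 −0.23), but deviations of same-numbered mice correlated at 0.365, −0.371 and 0.158, so the numbers were not taken as pairs. With 3 mice per genotype the narrowest 95% interval, that of Myrf, ran from −0.31 to 0.32 on the log2 scale.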
